A study of Homo sapiens with 9 samples.

Results

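IL24, a secreted cytokine of the IL-20 subfamily, and 9 further inflammatory cytokine genes were followed in RNA-seq libraries of a lung cancer line carrying an inducible RUNX3. The 10 genes were fixed by name: IL24, IL19 and IL20, which lie next to each other on chromosome 1, and IL6, CXCL8, CXCL1, CXCL2, CXCL3, CCL20 and IL1A. All 10 were found among the 19869 genes of the table for the mutant RUNX3 line, and 3 (IL19, IL20 and IL24) could be named among the 24331 genes of the table for the other lines, called the first table below. A symbol could be given to 1145 identifiers of the latter, nearly all of them genes on the plus strand of chromosome 1, so the 7 other cytokines were not analysed there.

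The cells were NCI-H460, a large cell lung cancer line established from a pleural effusion, in which the endogenous RUNX3 is inactivated. H460-vec carried the empty vector and served as control. H460-ERT2-RUNX3 carried wild-type RUNX3 fused to ERT2, an estrogen receptor domain that holds a protein inactive until 4-hydroxytamoxifen (4-OHT) is added. H460-ERT2-RUNX3-K94/171R carried the same fusion with lysines 94 and 171, the acetylated residues through which RUNX3 binds the bromodomain protein BRD2, replaced by arginine. All lines were stable transfectants at passage 11, and whether each was 1 clone is not given in the sources used here. Cells of all 3 lines were starved of serum for 24 h and then given 10% serum with 1 µM 4-OHT for 8 or 16 h, and the 0 h cells received neither. The control therefore also received serum and 4-OHT. Each of the 9 conditions was 1 library, so no value below has a replicate error and no difference was tested.

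IL-24, IL-19 and IL-20 signal to epithelial cells through receptors built from IL20RA, IL20RB and IL22RA1, and IL-24 is known for slowing the growth of tumour cells when it is forced to a high level. CXCL1, CXCL2, CXCL3 and CXCL8 attract neutrophils through CXCR2, CCL20 attracts CCR6-bearing lymphocytes and dendritic cells, IL-6 signals through IL6R and gp130, and IL-1α acts as an alarm signal of injured epithelium. Transcription of most of these genes is driven by NF-κB and AP-1, and many carcinoma lines secrete several of them without stimulation.

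The sequences before the gene starts are given first. The 250 bases before the start of IL24 (chr1:207070538-207070787, hg19, plus strand) are shown because IL24 was the member with the large change, with the match to the TATA-box letters TATATA, which begins 29 bases before the start, in capitals.
IL24: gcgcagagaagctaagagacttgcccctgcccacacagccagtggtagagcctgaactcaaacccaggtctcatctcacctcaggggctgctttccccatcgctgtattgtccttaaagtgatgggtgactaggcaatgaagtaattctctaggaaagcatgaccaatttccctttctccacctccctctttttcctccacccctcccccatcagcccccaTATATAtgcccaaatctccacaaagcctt
The CXC chemokine genes and IL6 are shown as stretches of 60 bases around a match to the NF-κB letters GGGA, any 2 bases and TTCC. The stretches are chr4:74735006-74735065 on the plus strand for CXCL1, chr4:74964956-74965015 on the minus strand for CXCL2, chr4:74904451-74904510 on the minus strand for CXCL3 and chr7:22766721-22766780 on the plus strand for IL6, and capitals mark the match. In the CXCL genes the capitals cover 2 overlapping matches, 1 on each strand.
CXCL1: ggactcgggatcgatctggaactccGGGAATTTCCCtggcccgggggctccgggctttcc
CXCL2: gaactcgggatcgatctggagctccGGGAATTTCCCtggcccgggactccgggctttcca
CXCL3: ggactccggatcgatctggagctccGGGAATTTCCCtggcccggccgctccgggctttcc
IL6: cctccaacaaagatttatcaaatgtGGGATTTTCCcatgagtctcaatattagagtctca
The matches begin 79, 78, 79 and 73 bases before the starts of CXCL1, CXCL2, CXCL3 and IL6. These starts are those of RefSeq, and for IL6 and CXCL3 they lie inside the wider gene spans given below, which come from the GENCODE annotation. Without gaps, CXCL1 and CXCL3 were identical at 56 of these 60 bases, CXCL1 and CXCL2 at 49, and CXCL2 and CXCL3 at 48. Within 250 bases before the start and on either strand, the NF-κB letters were present for 4 of the 10 members and in 1.4% of 35116 promoters. These 4 were IL6 and the paralogs CXCL1, CXCL2 and CXCL3. The 10 members had 13 promoter entries, and a member counted if any entry of its own matched, whereas the shares are of single entries. The AP-1 letters TGANTCA were present for IL19, CXCL8 and IL1A and in 6.57% of promoters, and TATATA for IL24 and IL20 and in 3.73%. The RUNX letters TGTGGT or TGCGGT were present for 0 of the 10 members and in 16.3% of promoters. No match says only that these letters are not in this window. The letters were chosen with the sequences in view, so no difference between the member counts and these shares was tested.

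One feature of the libraries bears on every value of H460-ERT2-RUNX3 at 16 h. On log2(FPKM + 0.05), where FPKM is fragments scaled to transcript length and library size, this library correlated with the 5 others of its table at 0.901 to 0.940, against 0.964 to 0.980 for the 10 other pairs and 0.980 to 0.982 for the 3 pairs of the mutant line. It also had the largest sum of FPKM values, and setting all sums equal moves the median log2 change of that library by −0.49. Between 10961 and 11367 genes reached an FPKM of 1 in each library, and read totals are unknown. From the single-read steps among low values, relative depth ran from 0.963 to 1.17 of the H460-vec 0 h library in 4 libraries of the same table, and no clear step was found for H460-ERT2-RUNX3 at 16 h or for the mutant line. RUNX3 itself could be read only in the mutant line, where it was at 2.12, 0.712 and 2.11 FPKM at 0, 8 and 16 h. Transcripts of the endogenous gene and of the fusion cannot be told apart there.

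IL24 was almost silent in 8 of the 9 libraries and abundant in 1. In H460-ERT2-RUNX3 the FPKM of IL24 was 0.0758 before induction, 0.0736 after 8 h and 102 after 16 h. In H460-vec it was listed at 0 at all 3 times. In H460-ERT2-RUNX3-K94/171R it was listed at 0 at 0 h and 8 h and was at 0.0700 at 16 h. Only the 16 h library of the wild-type fusion lay above 0.1 FPKM.

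On the scale of log2(FPKM + 0.05) against 0 h of the same line, IL24 changed by −0.03 at 8 h and rose by 9.67 at 16 h in H460-ERT2-RUNX3. Both changes share the 0 h library. With a pseudocount of 1 in place of 0.05 the rise at 16 h was 6.59, so its size, though not its direction, depends on how the near-zero starting value is treated. In H460-vec the changes were 0 at both times, and in the mutant line the change at 16 h was 1.26, below the threshold of 2 that the study used, although it passed 2 with a pseudocount of 0.01. The 16 h change rests on a level that 6.37% of the positive values of its library fell below. IL24 was 1 of 3 named members past 2 in H460-ERT2-RUNX3 at 16 h and none was past 2 at 8 h, where 5.03% and 0.941% of all genes rose and 5.11% and 0.81% fell that far. In H460-vec none of the 3 members was past 2, beside 0.506% of all genes rising at 8 h, 0.645% at 16 h and 0.448% falling at each time.

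**Figure D1:**
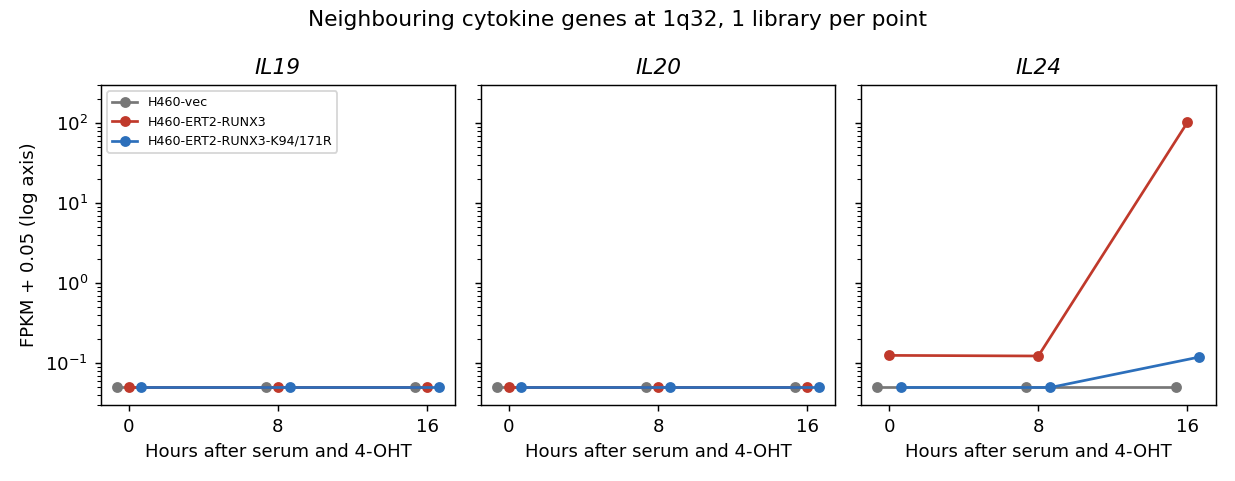
FPKM + 0.05 on a log axis for IL19, IL20 and IL24 at 0, 8 and 16 h in the 3 lines, 1 library per point, with points shifted sideways where they coincide and points at 0.05 standing for genes listed at 0. IL24 reaches 102 FPKM in H460-ERT2-RUNX3 at 16 h, while IL19 and IL20 are listed at 0 in all 9 libraries.

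The rise of IL24 was among the largest of its table. It ranked 11 of 24331 genes by log2 change at 16 h, and 4 of the 15819 genes that were not at 0 in the 0 h library. Its level at 16 h ranked 946 among 15571 genes with a positive value, inside the top 6.08%. Before that, 10.2% of the positive values at 0 h and 9.06% at 8 h lay below it. IL24 thus went from the lowest part of the measured range to its upper part between 8 h and 16 h.

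Late switches of this kind were few but not unique to IL24. In H460-ERT2-RUNX3, 9980 genes lay under 0.1 FPKM at both 0 h and 8 h, and of these 78 reached at least 1, 18 at least 10 and 3 at least 100 FPKM at 16 h. In H460-vec 13 of 9934 such genes reached 1 and 9 reached 10. In the mutant line 3 of 6589 reached 1 and 0 reached 10. Among the 78, only IL24 and SLC22A15, a member of the organic ion transporter family, could be named. Like MMP1 below, SLC22A15 was singled out after its values were seen. It was at 0.0242, 0.0937 and 1.04 FPKM at 0, 8 and 16 h in H460-ERT2-RUNX3, and at 0.106, 0.0340 and 0.0275 in H460-vec. Of all 1145 named identifiers, only MMP1, the interstitial collagenase, had a larger change than IL24 at 16 h. MMP1 was at 0.127, 0.193 and 505 FPKM in H460-ERT2-RUNX3 and at 0.193, 0.246 and 0.133 in H460-vec, and rose by 11.48 at 16 h.

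The identity of the reads behind the IL24 value has a limit. The IL24 gene (ENSG00000162892) lies at chr1:207070788-207077484 on the plus strand of hg19, and the span listed for it in the first table ran on to 207095378. That span covers most of FCMR, the gene of the IgM Fc receptor, which lies on the minus strand at chr1:207076662-207096592 and overlaps the IL24 gene by 823 bases. The library kit marked strand, but whether the counting used it is not given in the sources used here, so reads of the 2 genes cannot be told apart in the first table. In the mutant line, where FCMR had its own entry, it was at 0, 0.0791 and 0 FPKM at 0, 8 and 16 h. FCMR was not analysed in the other lines.

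IL19 and IL20, the closest relatives of IL24, were listed at 0 in all 9 libraries, including the one in which IL24 was at 102 FPKM. IL19 (ENSG00000142224) lies at chr1:206944109-207016326 and IL20 (ENSG00000162891) at chr1:207038968-207042568, both on the plus strand like IL24. The same holds for IL10, the founding member of the wider family next to IL19, in the mutant line, the only one where it could be read. Of the 3 genes read, only IL24 was above 0 in any library.

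Of the 5 named genes on each side of IL24, those expressed before induction were all higher at 16 h in H460-ERT2-RUNX3. Nearly all named genes are on the plus strand, so genes such as FCMR that lie among them on the minus strand were passed over. At 0 h 4 of the 10 had an FPKM of at least 1 (DYRK3, MAPKAPK2, PFKFB2 and CD55) and 5 lay under 0.1, 4 of them listed at 0. The 4 expressed genes had log2 changes of 1.31 to 4.53 at 16 h, and 3 of them rose by at least 2. The same 4 genes changed by −0.06 to 0.75 in H460-vec and by −0.21 to 0.47 in the mutant line. Among all named chromosome 1 genes, 6.31% rose by at least 2 in H460-ERT2-RUNX3 at 16 h and 8.02% fell by at least 2. These shares are over genes with an FPKM of at least 1 at 0 h or 16 h, a wider filter than that at 0 h.

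DYRK3, a kinase that dissolves stress granules, was at 7.65, 10.7 and 111 FPKM at 0, 8 and 16 h in H460-ERT2-RUNX3. In H460-vec it stayed between 6.82 and 7.19. MAPKAPK2, the kinase that stabilises many cytokine mRNAs downstream of p38, was at 25.7, 25.4 and 64.0 FPKM in H460-ERT2-RUNX3 and between 18.5 and 21.3 in H460-vec. MAPKAPK2, like IL24, was no higher at 8 h than at 0 h, and its change at 16 h, 1.31, did not reach 2. PFKFB2, which makes the glycolytic regulator fructose-2,6-bisphosphate, was at 1.43, 7.04 and 16.5 FPKM, and at 2.04, 4.19 and 3.46 in H460-vec. CD55, which protects cells from complement, was at 78.2, 156 and 1805 FPKM, and at 84.2, 70.9 and 119 in H460-vec. DYRK3, PFKFB2 and CD55, unlike IL24, were already higher in H460-ERT2-RUNX3 at 8 h than at 0 h. RASSF5, a RAS-binding protein that passed an FPKM of 1 only at 16 h, was at 0.256, 0.0754 and 1.64 FPKM in H460-ERT2-RUNX3, and its log2 change at 16 h was 2.47, or 1.07 with a pseudocount of 1. C4BPB and C4BPA, the chains of the C4b-binding protein, were listed at 0 in all 9 libraries, and CR2, a complement receptor, stayed below 0.1 FPKM.

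**Figure D2:**
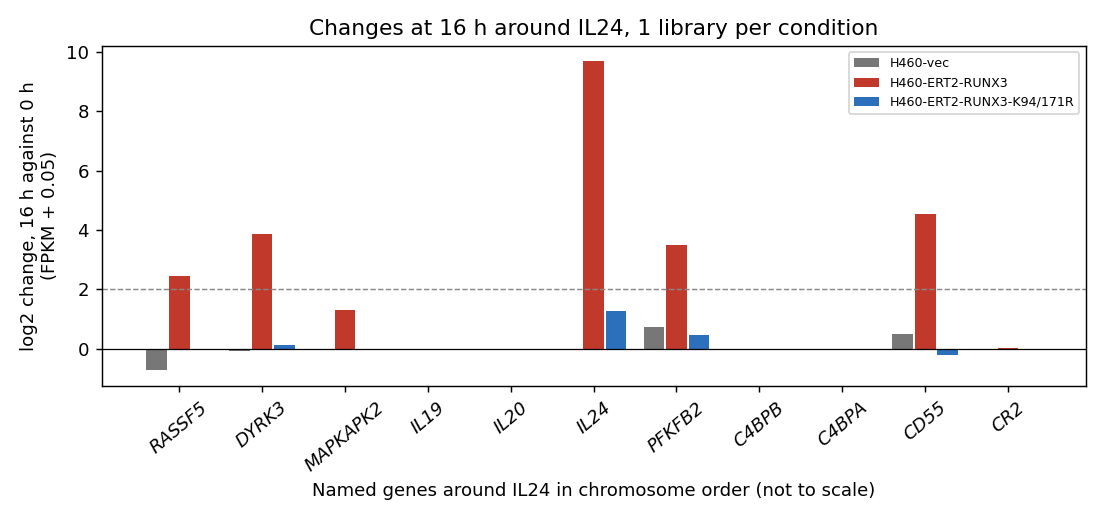
Log2 change at 16 h against 0 h of the same line (FPKM + 0.05, 1 library per condition) for IL24 and the 5 named genes on each side, in chromosome order and not to scale, with a dashed line at 2. The H460-ERT2-RUNX3 bars of IL24, CD55, DYRK3, PFKFB2 and RASSF5 pass 2, and no bar of H460-vec or of the mutant line does. RASSF5 has no bar for the mutant line, where it was not analysed.

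IL24 was low in 5 of the 6 libraries of its table and high in 1, and a high correlation with it was common. Such a correlation does not require a gene to be low in the other libraries. Of 605 named genes with a highest FPKM of at least 1, 93 (15.4%) had a Pearson r above 0.9 with IL24 on log2(FPKM + 0.05), over 6 libraries that include the one that stands apart. The 5 most alike were LRRC42 (r = 0.997), DYRK3 (0.995), STX12 (0.992), PIP5K1A (0.991) and CCDC30 (0.991). Their sizes of change differed widely. CCDC30 was at 0.0564, 0.125 and 21.3 FPKM in H460-ERT2-RUNX3 at 0, 8 and 16 h, whereas STX12, a syntaxin of the endosome, was at 7.61, 7.47 and 12.8.

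In the mutant line all 10 cytokine genes could be read, and 6 of them were expressed, with an FPKM of at least 1 in at least 1 library: IL6, CXCL8, CXCL1, CXCL2, CXCL3 and CCL20. IL1A was low, IL24 was near 0, and IL19 and IL20 were listed at 0. None of the 10 was past 2 in either direction at 8 h or 16 h. Among all genes of that table, 0.493% rose and 0.997% fell by at least 2 at 8 h, and 0.554% rose and 0.765% fell by as much at 16 h.

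The neutrophil chemokines CXCL8 and CXCL1 had the highest levels of the members. CXCL8 (ENSG00000169429, chr4:74606236-74609433), the gene of interleukin-8, was at 145, 165 and 243 FPKM at 0, 8 and 16 h. CXCL1 (ENSG00000163739, chr4:74735110-74737025) was at 187, 232 and 219 FPKM. Both were already abundant before serum and 4-OHT were added, and their order reversed between 8 h and 16 h. The log2 changes of CXCL8 were 0.19 and 0.75, and those of CXCL1 were 0.31 and 0.23. Of 11390 genes expressed in this line, 2.99%, CXCL8 included, had as large an increase as CXCL8 at 16 h.

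CXCL2 (ENSG00000081041, chr4:74962757-74964913, minus strand) was at 8.00, 25.1 and 11.3 FPKM, highest in the 8 h library. CXCL3 (ENSG00000163734, chr4:74902306-74904524, minus strand) was at 2.11, 3.18 and 3.15 FPKM. CXCL1, CXCL2 and CXCL3 are close paralogs, and how reads that match more than 1 of them were shared out is not given in the sources used here. The log2 change of CXCL2 was 1.65 at 8 h and 0.49 at 16 h. Counting CXCL2 itself, 29 of the 11390 expressed genes, or 0.255%, had as large an increase at 8 h. CXCL3 had log2 changes of 0.58 and 0.57.

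CCL20 (ENSG00000115009, chr2:228670455-228682280) was at 5.27, 13.7 and 6.39 FPKM, again highest at 8 h. Its log2 change was 1.37 at 8 h and 0.27 at 16 h. Counting CCL20 itself, 49 expressed genes, 0.430%, had as large an increase at 8 h. CXCL2 and CCL20 were the 2 members with a change of at least 1 at 8 h, which 2.77% of all genes of the table reached. Both were back within 0.5 of their starting level on the log2 scale at 16 h.

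IL6 (ENSG00000136244, chr7:22765503-22771621), the acute-phase cytokine, varied little, at 38.4, 33.9 and 42.5 FPKM, with log2 changes of −0.18 and 0.15. IL1A (ENSG00000115008, chr2:113531502-113542070, minus strand) was at 0.191, 0.408 and 0.689 FPKM. Its log2 changes were 0.93 and 1.62, at levels below 1 FPKM in every library. IL1A and IL24 were the 2 members with a change of at least 1 at 16 h, beside 3.11% of all genes. Neither was expressed by the measure used here.

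Among the 6 expressed members, 5 were higher and 1 was lower at 8 h than at 0 h, with a median log2 change of 0.45, and 6 were higher at 16 h, with a median of 0.38. The medians over the 11390 expressed genes were 0.0048 and −0.011. The shared 0 h library stands behind both counts, and the control line, which received the same serum and 4-OHT, was not analysed for these 6 genes. In order of FPKM at 16 h the members ran CXCL8, CXCL1, IL6, CXCL2, CCL20, CXCL3, IL1A and IL24. With 1 library per time no spread can be set against the steps of this order. In bulk libraries, fewer cells making a cytokine and less of its RNA per cell cannot be told apart.

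**Figure D3:**
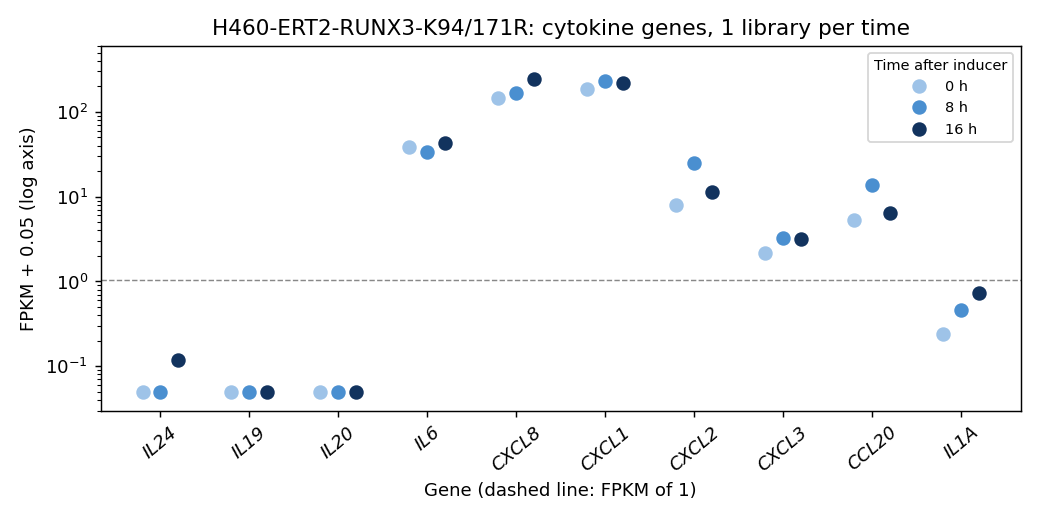
FPKM + 0.05 on a log axis for the 10 cytokine genes in H460-ERT2-RUNX3-K94/171R, with 1 point per library at 0, 8 and 16 h and a dashed line at an FPKM of 1. IL6, CXCL8, CXCL1, CXCL2, CXCL3 and CCL20 lie above the line at every time, with the 8 h point highest for CXCL2 and CCL20, and the other 4 genes lie below it.

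Receptor genes were read in the mutant line, and those of IL-6 and IL-1α were expressed. Of 5 genes for receptors of the IL-20 family, 2 were expressed and 0 were past 2 at either time. Few genes of that line were: 0.493% rose and 0.997% fell by at least 2 at 8 h, and 0.554% and 0.765% at 16 h. IL10RB, the chain shared with the IL-10 receptor, was at 19.7, 16.9 and 17.2 FPKM, and IL22RA1, a chain that binds IL-24 and IL-20, at 3.14, 4.32 and 3.38. IL20RB, its partner chain and named after its values were seen, was at 0.511, 0.735 and 0.562 FPKM, and IL20RA did not exceed 0.0258. So in these cells 1 chain of the IL22RA1 and IL20RB pair was above 1 FPKM and the other below it.

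Of 9 genes for receptors and the antagonist of the other members, 4 were expressed and 0 were past 2, beside the same shares of all genes. IL6ST, which encodes gp130, was at 40.7, 34.8 and 32.2 FPKM, and IL6R, the chain that binds IL-6, at 10.7, 8.20 and 10.0. IL1R1, the signalling receptor of IL-1α, was at 10.4, 18.4 and 15.2 FPKM, and its partner IL1RAP at 3.09, 5.81 and 5.52. CXCR1 and CXCR2, the receptors of the 4 CXC chemokines, were listed at 0 in all 3 libraries, and CCR6, the receptor of CCL20, did not exceed 0.0876.

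Other inflammatory cytokines ranged from listed at 0 to abundant. Of 27 further cytokine and chemokine genes, 7 were expressed and 10 were listed at 0 in the mutant line. CXCL5, a neutrophil chemokine close to CXCL1, was at 92.8, 111 and 129 FPKM, and LIF, a cytokine that signals through gp130, at 49.1, 40.9 and 46.3. At 8 h 1 of the 27 fell by at least 2 (IL32, from 0.163 to 0 FPKM) and at 16 h 1 rose (CCL5, from 0 to 0.160), both below 1 FPKM. Over all genes of that line, 0.997% fell that far at 8 h and 0.554% rose that far at 16 h. Of 16 NF-κB subunits, inhibitors and targets found, 13 were expressed and 0 were past 2, where under 1% of all genes passed in each direction. TNFAIP3, an NF-κB target that switches the pathway off, was at 62.6, 54.6 and 71.5 FPKM, and the early response gene IER3 at 27.0, 37.4 and 33.9.

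In H460-ERT2-RUNX3 inflammatory genes could be read only on chromosome 1. A list of 19 such genes was chosen by hand, with earlier results of these data known. Of these 19, 1 rose by at least 2 at 8 h, beside 0.941% of all genes rising and 0.81% falling. At 16 h 6 were past 2, 3 rising and 3 falling, beside 5.03% of all genes rising and 5.11% falling. All 6 were expressed. Of the named chromosome 1 genes with an FPKM of at least 1 at 0 h or 16 h, 6.31% rose and 8.02% fell that far at 16 h. In H460-vec 0 of the 19 were past 2 at either time, and in the mutant line 18 were found, of which 1 at 8 h and 2 at 16 h were past 2, none with an FPKM of 1. The median log2 change of all 19 in H460-ERT2-RUNX3 was 0 at 16 h, as it was over all genes. Of the 19, 4 were listed at 0 in that line, and over the 11 expressed the median was 1.01. Among those 11, 6 rose and 4 fell by at least 1. Over all genes with an FPKM of at least 1 at 0 h or 16 h the median was −0.0011. This difference was not tested. Because the list was not chosen blind to these data, its counts and median do not describe inflammatory genes in general.

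ATF3, a stress-induced repressor of inflammatory genes, rose at both times in H460-ERT2-RUNX3. It was at 2.95, 46.2 and 235 FPKM there and at 1.52, 1.69 and 4.13 in H460-vec, with log2 changes of 3.94 and 6.29 in the former. IFI16, a sensor of foreign DNA, was at 58.7, 139 and 475 FPKM in H460-ERT2-RUNX3 and between 39.5 and 43.8 in H460-vec, a log2 change of 3.01 at 16 h. CD55, described above as a neighbour of IL24, was the third gene to rise. ATF3 and IFI16 were already above their 0 h level at 8 h, a time at which IL24 was not.

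S100A9, a subunit of the inflammatory protein calprotectin, fell by 3.56 at 16 h in H460-ERT2-RUNX3. It was at 2.15, 2.65 and 0.137 FPKM there and at 14.9, 13.6 and 22.7 in H460-vec, so the lines also differed before induction. The other genes that fell, named after their values were seen, were IKBKE, a kinase of the NF-κB and interferon pathways, at 1.73, 1.51 and 0.208 FPKM, and TGFB2, a growth-inhibitory cytokine, at 16.0, 6.28 and 3.58 FPKM. With a pseudocount of 1 the 3 falls were −1.47, −1.18 and −1.89 and none passed 2, while the 3 rises did. IL6R, also named after its values were seen, was at 8.79, 5.61 and 33.2 FPKM in H460-ERT2-RUNX3 and at 6.96, 4.12 and 4.75 in H460-vec. The receptor chain for IL-6 was thus highest in the same library as IL24, with a log2 change of 1.91 that did not reach 2.

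**Figure D4:**
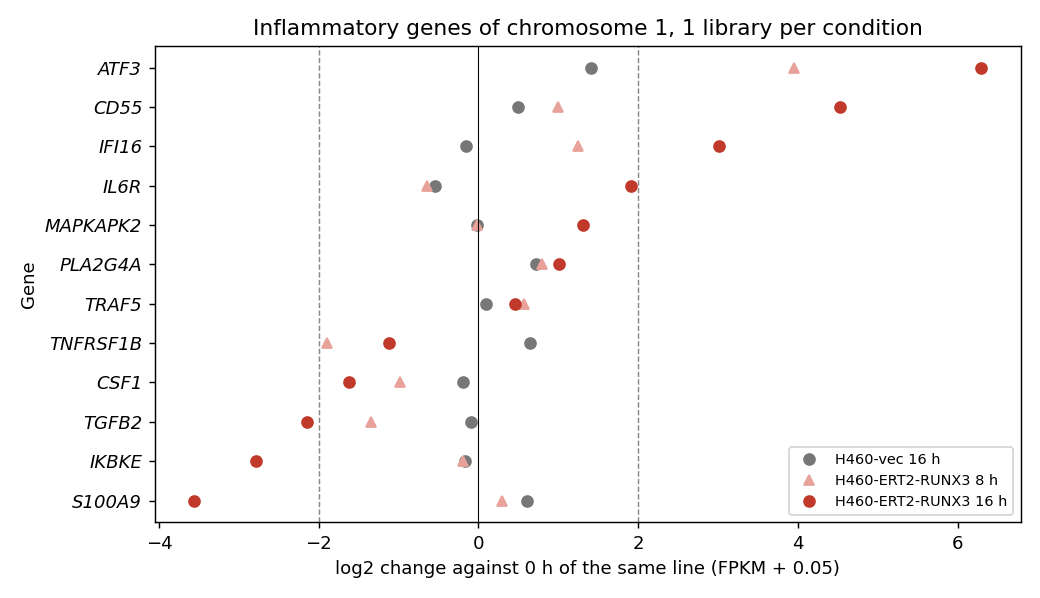
Log2 change against 0 h of the same line (FPKM + 0.05, 1 library per condition) for listed inflammatory genes of chromosome 1. Shown are the 12 with an FPKM of at least 1, in H460-vec at 16 h and in H460-ERT2-RUNX3 at 8 h and 16 h. Dashed lines stand at −2 and 2. At 16 h ATF3, CD55 and IFI16 lie above 2 and TGFB2, IKBKE and S100A9 below −2 in H460-ERT2-RUNX3, and all H460-vec points lie between the lines.

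Markers of other cell types were low in the mutant line, with exceptions. The epithelial keratins KRT8, KRT18 and KRT19 were between 309 and 698 FPKM, whereas EPCAM did not exceed 0.313 and CDH1, the epithelial cadherin, did not exceed 0.0227. Among leukocyte markers, CD3E was listed at 0 and PTPRC did not exceed 0.0155, while CD68 was between 47.2 and 56.9 FPKM and CD14 between 3.16 and 5.62. The summed leukocyte markers were at 62.5, 50.6 and 61.7 FPKM at 0, 8 and 16 h and the summed fibroblast markers at 3.60, 2.17 and 3.03. Most of the fibroblast sum was PDGFRB, at 3.20, 1.91 and 2.35 FPKM. Of the endothelial markers CDH5 was listed at 0 and VWF did not exceed 0.0284. The samples were cultures of NCI-H460 transfectants and not a tissue, and admixture of other cells was not tested. In the library in which IL24 was high, PTPRC, the pan-leukocyte gene and the only leukocyte marker that could be read there, was at 0.0761 FPKM.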

How the data were processed

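RNA-seq libraries from 9 conditions, 1 each, were analysed. Adapters were removed by the authors using Cutadapt, alignment to hg19 used STAR 2.5.0, and gene levels came from Cuffdiff 2.2.1 (versions from the submitters' processing notes). The authors deposited FPKM values in 2 tables, 1 for H460-vec and H460-ERT2-RUNX3 and 1 for the mutant line. The tables were made separately, so changes were computed only within each. The gene annotation, strand setting and read totals are not given in the sources used here. Levels are FPKM as deposited, and changes are log2((FPKM + 0.05)/(FPKM at 0 h + 0.05)). A gene was called past the threshold at a change of at least 2 or at most −2, and expressed at an FPKM of at least 1 in 1 or more of the libraries compared.

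For the mutant line, 19494 of 19869 genes had a symbol through their Ensembl identifier. For the other lines, 1145 of 24331 identifiers were named by the study's supplementary gene list (identifiers only). Genes were named by rule: all members, the genes past the threshold with an FPKM of at least 1 in each list (up to 4), otherwise the 2 with the highest FPKM, 5 named genes on each side of IL24, and the 5 most like it in Pearson r. The members and lists were chosen with earlier results of these data known, the motif letters also with the sequences in view. With 1 library per condition no p-value was computed. Promoter sequences are those of RefSeq (GRCh38.p14), placed on hg19 by exact match, and 13 entries covered the 10 members. A value counted as moved by an alternative when it moved by more than 0.70 (the SD of log2 changes in H460-vec at 16 h over expressed genes). Scripts ran in Python 3.11.15 with numpy 2.4.6, pandas 2.3.3 and matplotlib 3.10.9, and counting was tested on simulated data. Alternatives were other pseudocounts, thresholds, scalings and a filter on low values.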

Additional observations from a re-analysis of the deposited data

Results flagged for a closer look

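Of 44 comparisons of a gene between lines, 4 moved in opposite directions by more than 0.5 on the log2 scale in each line. All 4 were at 16 h, in H460-ERT2-RUNX3 against H460-vec. With 1 library per condition none of these differences was tested. The share of all genes that moved so was not computed, so the count says nothing particular to these genes. Over expressed genes the SD of log2 changes at 16 h was 1.66 in H460-ERT2-RUNX3 and 0.70 in H460-vec. Genes listed at 0 throughout could not be flagged. The log2 change of IL6R was 1.91 in H460-ERT2-RUNX3 and −0.55 in H460-vec. The log2 change of TNFRSF1B, a receptor of tumour necrosis factor, was −1.13 and 0.64, at levels up to 1.48 FPKM. The log2 change of S100A9 was −3.56 and 0.61. The log2 change of TNFRSF14, a receptor of the same family, was −1.37 and 1.01, at levels that did not exceed 0.368 FPKM in these libraries.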

How the results depend on the processing

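The rise of IL24 at 16 h in H460-ERT2-RUNX3 kept its direction and stayed past 2 under every alternative run, and was 6.59 with a pseudocount of 1. Beside it, 16 log2 changes of the members were not 0. Of their 64 recomputed values, 61 moved by less than 0.70 and 0 changed sign, and the largest move among the 6 members expressed in the mutant line was 0.154. Counts past the threshold depended more on the settings. With a threshold of 1, 2 members were counted at 8 h and 2 at 16 h in the mutant line, against 0 and 0, and a pseudocount of 0.01 counted 1 at 16 h. Of the 57 related genes in the mutant line, against 1 at each time, a pseudocount of 1 or a filter at an FPKM of 1 counted 0 at both times, a pseudocount of 0.01 counted 7 and 7, and a threshold of 1 counted 8 at 8 h and 9 at 16 h. Of the chromosome 1 inflammatory genes in H460-ERT2-RUNX3 at 8 h, against 1, a pseudocount of 0.01 counted 3, equal sums 2 and a threshold of 1 counted 5. At 16 h, against 6, a pseudocount of 1 counted 3 and a threshold of 1 counted 13. Equal sums moved the median log2 change by −0.18 and −0.49 in H460-ERT2-RUNX3 at 8 h and 16 h and by −0.11 in H460-vec at 16 h. The ratio of IL24 to H460-vec was not run because the gene is listed at 0 there. No paired analysis was possible because each condition is 1 library, and leaving out a replicate was not possible for the same reason.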
